A study of Arabidopsis thaliana with 4 samples.

Results

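The Aux/IAA repressors and the TIR1/AFB receptors of Arabidopsis thaliana were described in RNA-seq libraries of hypocotyl-derived callus. The members were taken by locus code from a list of 35 genes, 29 Aux/IAA genes (IAA1 to IAA20 and IAA26 to IAA34) and 6 receptor genes (TIR1 and AFB1 to AFB5). Of these, 34 have a row among the 23922 loci of the count table, 28 Aux/IAA and 6 receptors. IAA6 has no row and was not analysed here. The study compared callus labelled wild type (accession Col-0) with callus labelled plt1 plt2, a double mutant of the transcription factor genes PLT1 and PLT2, with 2 libraries per label. In both groups, seedlings spent 9 days in darkness, after which hypocotyl pieces of about 1 cm were kept under continuous light at 22 °C on callus induction medium with 11 µM 2,4-D (a synthetic auxin), 0.2 µM kinetin (a cytokinin) and 2% sucrose. The stage label gives 6 days on this medium, and each RNA sample pooled about 100 calli. The labels and notes name no alleles for either gene. They also do not state whether libraries with 1 label were grown as separate cultures. The p-values therefore measure only the spread between these libraries, which may be technical.

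Aux/IAA proteins are short-lived repressors that bind auxin response factors (ARFs) and recruit TOPLESS co-repressors to auxin-responsive genes. Auxin joins an Aux/IAA to a TIR1/AFB F-box protein, the substrate-binding subunit of an SCF ubiquitin ligase, and the repressor is then degraded. Many Aux/IAA genes are themselves direct targets of ARFs, so auxin raises the transcripts of repressors whose proteins it removes. Callus formation on auxin-rich medium is known to follow a lateral root programme that a stabilised IAA14 protein blocks.

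The part of an Aux/IAA protein that the receptor grips is the degron of domain II, with a core of glycine, tryptophan and 2 prolines. In the RefSeq coding sequences (TAIR10.1, longest per gene), the in-frame run GGNTGGCCNCCN that encodes this core was found in 23 of the 29 Aux/IAA genes (79.3%) and in 34 of 27444 protein-coding genes (0.124%). IAA20, IAA30, IAA31, IAA32, IAA33 and IAA34 hold no such run. The 6 members with the run whose transcript level differed between the labels (below) are shown 5′ to 3′ on the coding strand with 9 bases on either side, and the capitals mark the run.
IAA11: caagttgtgGGATGGCCACCAataaggact
IAA16: caagttgtgGGATGGCCACCGgtacgatct
IAA19: caggtggtgGGGTGGCCACCGgtttgttct
IAA27: caagtggtgGGATGGCCACCAataagatca
IAA28: ccagtggtgGGATGGCCGCCGgtgagatca
IAA29: gaagttgttGGATGGCCACCAgtaaaaaca
They lie at chr4:14143003-14143032 (IAA11, plus strand), chr3:1289730-1289759 (IAA16, minus), chr3:5264307-5264336 (IAA19, plus), chr4:14324654-14324683 (IAA27, minus), chr5:9033812-9033841 (IAA28, plus) and chr4:15583942-15583971 (IAA29, plus), each within 1 coding exon. IAA20 was the only called Aux/IAA gene without the run.

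Counted reads ranged from 53907649 to 63209401 per library, and the members took 0.297% to 0.331% of them. Read counts of the 2 libraries with the same label gave a chi-square of 5.34 and 7.75 per degree of freedom, above sampling noise, against 21.0 to 25.5 between labels. Of the genes named as disrupted, PLT1 had 171 and 166 CPM (the usual depth-scaled read count, here with TMM-scaled library sizes) under the wild type label and 122 and 128 CPM under the plt1 plt2 label, whereas PLT2 had 63.1 and 62.1 CPM against 182 and 179 CPM. Reads of PLT2 were thus higher under the label that names its loss, counts per gene do not show where in a gene reads lie, and every direction below rests on the labels. As a check of the tissue, 5 callus and root founder genes (WOX5, SCR, PLT3, BBM and LBD16) had at least 122 CPM in every library, though all 5 also differed between the labels (below), WOX11 had 5.73 to 7.65 CPM, and the green tissue marker RBCS1A at most 0.872 CPM.

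Levels were first compared per length, as CPM per kilobase of exon (RPKM). IAA9, known in tomato for roles in leaf shape and fruit set, was the most abundant member in all 4 libraries, with 442 and 461 RPKM under the wild type label and 469 and 485 RPKM under the plt1 plt2 label. It supplied between 26.4% and 27.6% of the summed Aux/IAA RPKM of a library. IAA19 came next in every library, at 200 and 203 RPKM against 283 and 285 RPKM, and IAA4, IAA13, IAA2, IAA27, IAA30 and IAA8 followed with means of 98.6 to 127 RPKM over the 4 libraries. These 8 genes together made up 80.7% of the summed Aux/IAA RPKM. IAA14, the repressor whose stabilised form blocks callus formation, was much lower, at 13.7 and 14.1 RPKM against 10.4 and 13.1 RPKM.

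The receptors lay in the middle of the range. TIR1 was the most abundant of them, at 50.3 and 47.6 RPKM under the wild type label and 46.1 and 45.7 RPKM under the plt1 plt2 label, followed in each library by AFB5 (34.6 to 37.0 RPKM) and AFB2 (19.0 to 19.6 RPKM). AFB1, AFB3 and AFB4 had 8.85 to 15.6 RPKM. At the low end, 5 Aux/IAA genes had a mean under 1 RPKM (IAA15, IAA31, IAA32, IAA33 and IAA34). IAA31 had 2, 2, 9 and 2 reads and IAA34 had 3, 3, 6 and 1 reads, in the order wild type 1 and 2 and plt1 plt2 1 and 2, and neither passed the filter on low counts. IAA34 shares 125 exon bases with AT1G15060, a gene on its own strand with 1737 to 2132 reads per library. Reads of that overlap cannot be assigned.

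**Figure D1:**
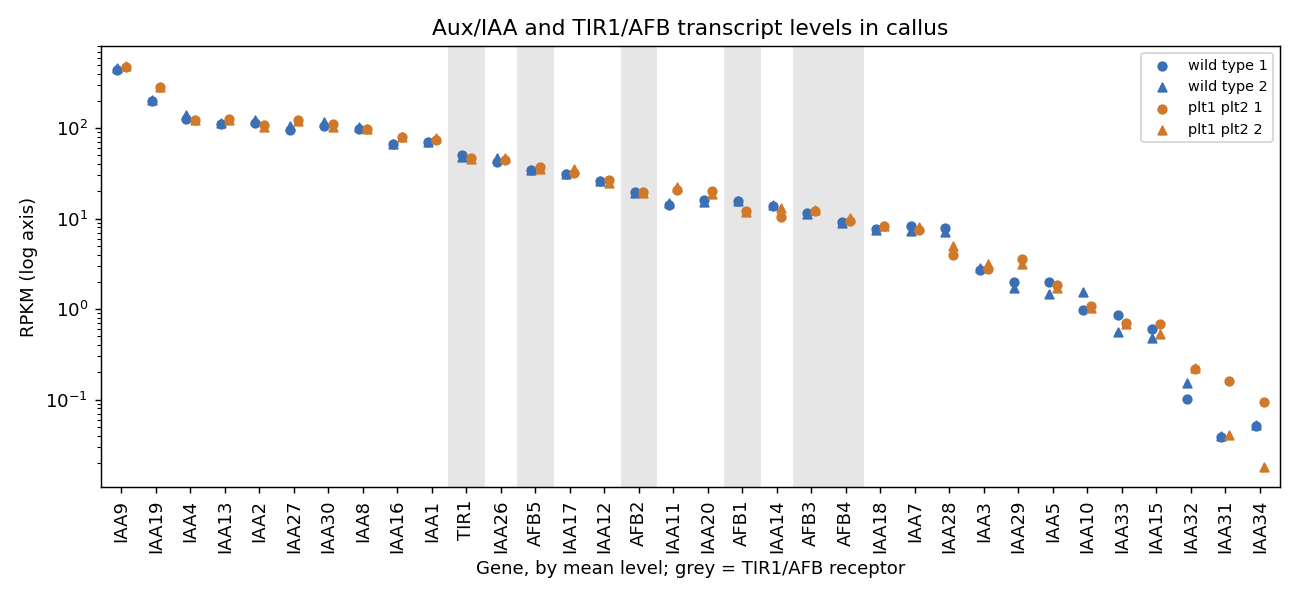
Transcript level of the 34 members with a row in each of the 4 libraries, in RPKM on a log axis, ordered by mean level; blue marks wild type, orange plt1 plt2, circles replicate 1 and triangles replicate 2, and grey bands mark the 6 receptor genes. IAA9 and IAA19 lead in every library, and the receptors lie between TIR1 at 45.7 to 50.3 RPKM and AFB4 at 8.85 to 10.1 RPKM.

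The genotype labels were compared with edgeR's quasi-likelihood test over all 19325 genes that passed the filter, and a gene was called at a Benjamini-Hochberg adjusted p below 0.05. Of the 32 tested members 8 were called: 6 Aux/IAA genes rose (IAA11, IAA16, IAA19, IAA20, IAA27 and IAA29), IAA28 fell, and among the receptors AFB1 fell. Over all tested genes 10.5% were called, 4.63% higher and 5.86% lower under the plt1 plt2 label, against 26.9% of the 26 tested Aux/IAA genes and 1 of 6 receptors (16.7%). The median log2 fold change was 0.08 for the tested Aux/IAA genes, 0.03 for the receptors and -0.00053 for all tested genes. Counts and medians describe the families and were not tested as sets. Of the 26 Aux/IAA values 16 lay above 0 and 10 below, and at an unadjusted edgeR p below 0.05 there were 8 higher and 4 lower (IAA2, IAA4, IAA14 and IAA28). DESeq2 called 8 members as well, with IAA13 in place of IAA20, against 7.9% of all genes it tested. Without the library wild type 1 or without wild type 2, 6 members were called in place of 8, and 1137 and 1068 genes in place of 2027.

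**Figure D2:**
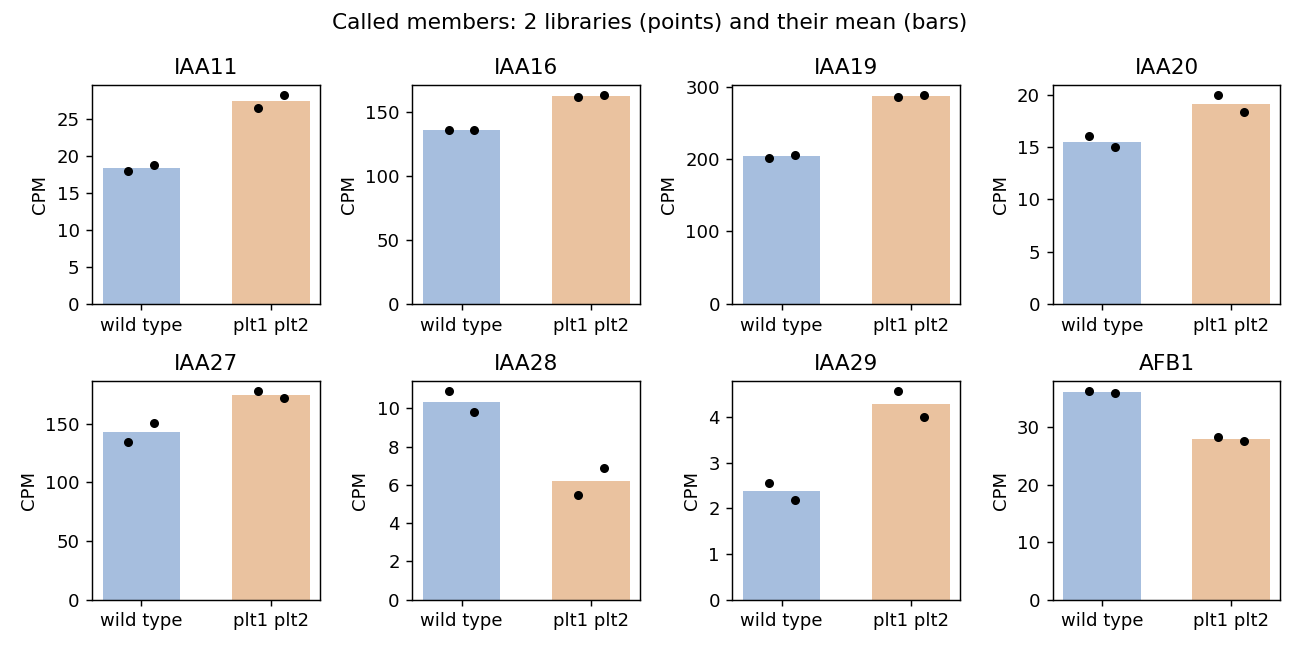
CPM of the 8 called members; each point is 1 library, bars show the mean of the 2 libraries of a label, and every axis starts at 0. The points of the 2 labels do not overlap for any of the 8 genes, which also held for 54.7% of all tested genes. IAA28 and AFB1 are the 2 that are lower under the plt1 plt2 label.

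IAA19 (MASSUGU2), which acts with ARF7 in bending of the hypocotyl, gained the most reads. It had 202 and 205 CPM under the wild type label and 286 and 288 CPM under the plt1 plt2 label, which is 1.41-fold higher (0.49 ± 0.042 on the log2 scale, SE; edgeR adjusted p = 4.36e-05). Its share of the summed Aux/IAA RPKM was 12.5% and 12.1% in the first pair and 15.9% in both libraries of the second. IAA19 (AT3G15540) spans 5264001 to 5265695 on chromosome 3 (plus strand, 3 exons), overlaps no other annotated gene, and 0% of its exon bases match elsewhere in the genome. IAA5, of the same clade, matches IAA19 at 71.4% of aligned coding bases and had 1.14 to 1.54 CPM in all 4 libraries.

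IAA11 (AT4G28640) rose by a similar factor from a lower level. It had 17.9 and 18.7 CPM against 26.6 and 28.2 CPM, so that both plt1 plt2 libraries lay well above both wild type libraries (log2 fold change 0.58 ± 0.062, edgeR adjusted p = 0.00019). IAA11 overlaps AT4G28650 on the other strand by 12 exon bases, and that gene held only 11 to 19 reads per library. Its sister IAA10 had 1.27 and 2.01 CPM against 1.42 and 1.34 CPM, with overlapping labels.

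IAA29 (AT4G32280), a gene known to respond to shade and to PIF transcription factors in seedlings, had the largest fold change of the called members at a low level. It had 2.57 and 2.18 CPM against 4.57 and 4.01 CPM, or 150 and 124 reads against 290 and 219 (log2 fold change 0.86 ± 0.16, edgeR adjusted p = 0.00637). The labels did not overlap. The call was lost without the library wild type 2 (edgeR adjusted p = 0.0643), with adjusted p of 1.39e-05 to 0.0643 over the 4 fits that leave out 1 library.

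Smaller increases were found for IAA16, IAA27 and IAA20. IAA16, whose stabilised form reduces responses to auxin and abscisic acid, was tightly replicated, with 135.9 and 136.0 CPM against 162 and 163 CPM (log2 fold change 0.26 ± 0.042, edgeR adjusted p = 0.00308). IAA27, also called PHYTOCHROME-ASSOCIATED PROTEIN 2, had 135 and 151 CPM against 178 and 172 CPM (0.29 ± 0.056, edgeR adjusted p = 0.00769), and the call ended without wild type 1, the lower of its wild type libraries (edgeR adjusted p = 0.0709). IAA27 shares 41 exon bases with AT4G29070 on the other strand, which was not called (edgeR adjusted p = 0.985). IAA20, which has no degron and whose overexpression disturbs vascular patterning, had 16.0 and 15.0 CPM against 19.9 and 18.3 CPM (0.30 ± 0.072, edgeR adjusted p = 0.0234). The IAA20 call was lost with DESeq2 (adjusted p = 0.0596) and in edgeR without wild type 1 (adjusted p = 0.0546), without wild type 2 (0.155) or without plt1 plt2 1 (0.0606).

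IAA28 (AT5G25890) was the only Aux/IAA gene that edgeR or DESeq2 called lower. It is known as a repressor of lateral root initiation that acts upstream of GATA23 in founder cells. IAA28 had 10.9 and 9.80 CPM under the wild type label and 5.47 and 6.89 CPM under the plt1 plt2 label, 637 and 557 reads against 347 and 376 (log2 fold change -0.75 ± 0.12, edgeR adjusted p = 0.00306). Its fold was 0.595, with a 95% interval of 0.493 to 0.718. GATA23 was near 1 CPM, at 0.770 and 1.28 CPM against 1.32 and 0.952 CPM, with overlapping labels (edgeR adjusted p = 0.808). In bulk callus, fewer cells with IAA28 transcript and less transcript per cell cannot be told apart.

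Marker genes of several cell types also differed between the labels, in both directions, where 10.5% of all tested genes were called. Of 6 callus and root founder genes 4 rose, WOX5 (log2 fold change 0.19, edgeR adjusted p = 0.0375), PLT3 (0.28, 0.00221), BBM (0.27, 0.00222) and LBD16 (0.28, 0.0157), and SCR fell (-0.37, 0.000871). Their summed level was 1466 to 1492 CPM under the wild type label and 1633 to 1694 CPM under the plt1 plt2 label, and 2 rather than 4 were called higher without wild type 1 or without wild type 2. The embryo gene LEC1 was called higher from 0.0513 and 0.158 CPM to 0.457 and 0.531 CPM (edgeR adjusted p = 0.0244), but not by DESeq2 (adjusted p = 0.0703) and not in edgeR without wild type 1. LEC1 had 3 and 9 reads against 29 and 29. Of the other embryo genes, FUS3 had no row, and LEC2 and ABI3 had at most 1 and 3 reads in a library and were not tested. All 4 root cap genes (SMB, FEZ, BRN1 and BRN2) fell, with summed levels of 57.6 to 62.4 CPM under the wild type label and 26.5 to 37.5 CPM under the plt1 plt2 label. Of 4 phloem genes 3 fell (8.11 to 9.34 CPM against 4.61 to 4.73 CPM), as did all 3 epidermis genes (995 to 1059 CPM against 789 to 850 CPM). Most of 3 of these sums came from 1 gene each. PLT3 had 757 to 943 CPM of the callus and root founder sums, BRN1 18.75 to 46.2 CPM of the root cap sums, and PDF1 656 to 880 CPM of the epidermis sums. Some calls of the root cap, phloem and epidermis lists were lost when a wild type library was left out. Of the epidermis genes, PDF1 lost its call without wild type 1 (log2 fold change -0.27). ATML1 lost its call without wild type 2 (-0.26). DESeq2 called 3 of the 4 root cap genes (not BRN1, adjusted p = 0.0755), 2 of the 4 phloem genes and all 3 epidermis genes. None of 5 tested xylem genes was called by edgeR or DESeq2, and 1, CESA7, had an unadjusted edgeR p below 0.05 (summed levels of 18.4 to 22.3 CPM against 16.3 to 18.5 CPM). No marker of the root cap, phloem, epidermis or xylem lists was at 0 in all libraries. The part of these cell types in the changes of any member, higher or lower, was not tested.

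The remaining 19 tested Aux/IAA genes were not called. Among the abundant ones the 95% interval of the fold was 0.986 to 1.13 for IAA9, 0.908 to 1.05 for IAA8 and 0.894 to 1.06 for IAA30. Those of IAA4 (0.849 to 0.997), IAA2 (0.833 to 0.972) and IAA13 (1.03 to 1.18) left out 1 before adjustment over all genes. In all, 17 of the 24 members that were not called, receptors included, had an interval within 0.8 to 1.25-fold. The other 7 (IAA3, IAA5, IAA10, IAA14, IAA15, IAA32 and IAA33) had wider ones, and for IAA32, with 11 and 16 reads against 26 and 23, the interval ran from 0.919 to 3.39. IAA32 lies on the other strand from AT2G01210, shares 826 exon bases with it, and that gene had 1509 to 1702 reads per library.

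**Figure D3:**
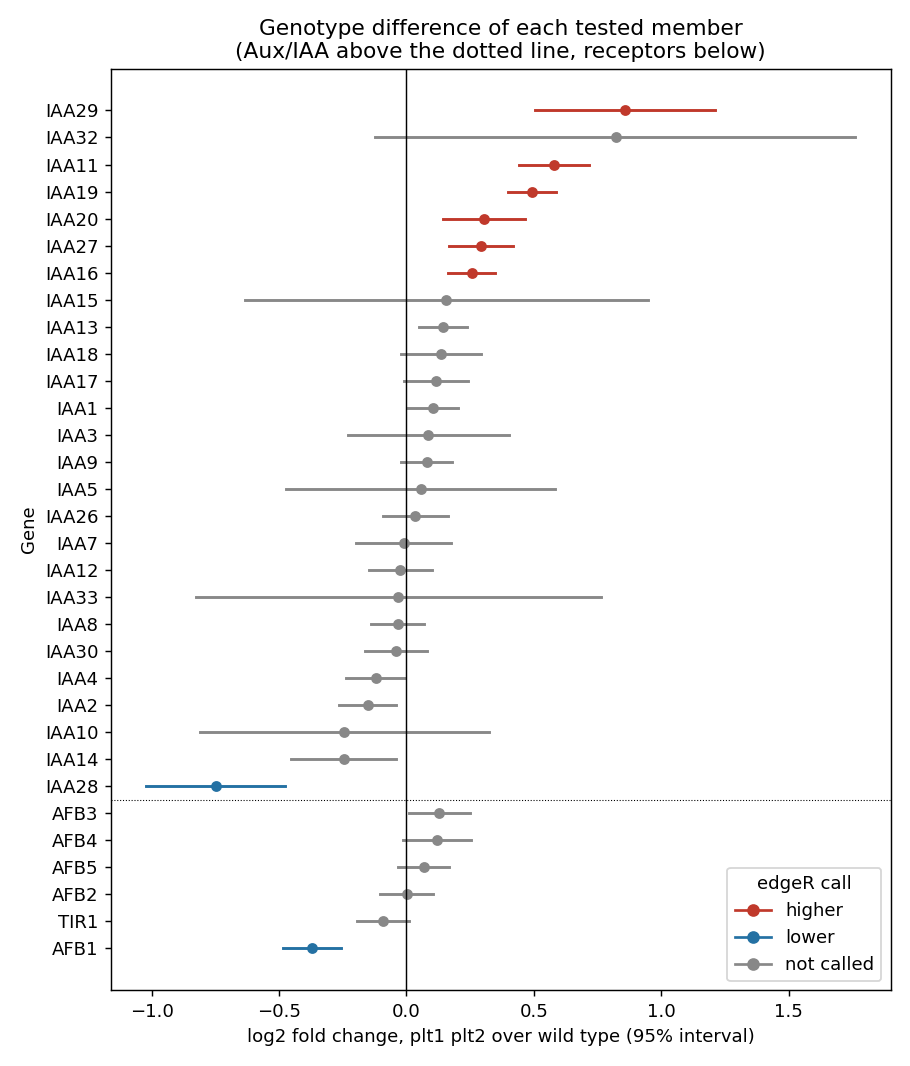
Log2 fold change (plt1 plt2 over wild type) with its 95% interval for the 32 tested members from the edgeR fit; red marks genes called higher, blue lower and grey not called, and the dotted line separates the Aux/IAA genes from the receptors. Called values run from -0.75 for IAA28 to 0.86 for IAA29, and the intervals widen for genes with few reads such as IAA32 and IAA15.

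Several of these genes belong to well-studied pairs. IAA12 (BODENLOS), the partner of ARF5 in forming the embryonic root, had 39.6 and 39.0 CPM against 40.2 and 37.0 CPM. Its sister IAA13 had 249 and 251 CPM against 280 and 272 CPM (log2 fold change 0.14 ± 0.043), not called by edgeR (adjusted p = 0.0616) but called by DESeq2 (adjusted p = 0.0368). IAA13 shares 784 exon bases with AT2G33300 on the other strand, which held at most 4 reads in a library. IAA14 had 25.9 and 26.5 CPM against 19.6 and 24.7 CPM, and its value of -0.25 ± 0.092 missed the threshold (edgeR adjusted p = 0.127). Leaving out plt1 plt2 2, the higher of its libraries with that label, gave a call at -0.42 (edgeR adjusted p = 9.99e-06).

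The auxin-inducible pair IAA1 and IAA2, alike at 85.6% of aligned coding bases, lay on opposite sides of 0. IAA1 had 66.2 and 66.9 CPM against 70.4 and 72.5 CPM, while IAA2 had 154 and 166 CPM against 147 and 141 CPM. Neither was called (edgeR adjusted p = 0.183 and 0.0873), although the labels did not overlap for either, which held for 54.7% of all tested genes. Leaving out plt1 plt2 1 gave a call for IAA2 (edgeR adjusted p = 0.0134). IAA3 (SHY2), which limits the size of the root meristem, was low at 3.66 and 3.83 CPM against 3.72 and 4.25 CPM, and its sister IAA4 had 170 and 188 CPM against 165 and 164 CPM. IAA3 shares 536 exon bases with AT1G04230 on the other strand. That gene had 1118 to 1281 reads per library, against 214 to 236 for IAA3, and reads of the overlap cannot be assigned. IAA7 (AXR2) and IAA17 (AXR3), known from auxin-resistant roots, had 15.9 and 14.0 against 14.2 and 15.5 CPM and 41.2 and 40.7 against 42.2 and 46.6 CPM. The sisters IAA18 and IAA26, the latter also called PHYTOCHROME-ASSOCIATED PROTEIN 1, had 13.7 and 13.2 against 14.8 and 14.8 CPM and 88.1 and 98.1 against 92.6 and 98.2 CPM, and neither was called (edgeR adjusted p = 0.270 and 0.766).

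Of the 6 Aux/IAA genes without degron codons, 4 were tested. IAA20 rose (above), and IAA30, its closest relative at 84% of aligned coding bases and the more abundant of the pair, had 104 and 114 CPM against 110 and 103 CPM, with overlapping labels. IAA33, described as competing with canonical members in the root tip, had 38 and 24 reads against 34 and 28. Of the 22 tested genes with the run 5 rose and 1 fell, where 10.5% of all tested genes were called.

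Receptor transcripts differed between the labels only for AFB1 among the 6, by edgeR and by DESeq2. AFB1 (AT4G03190) is known for the rapid inhibition of root growth by auxin, which does not need transcription. It had 36.3 and 36.0 CPM under the wild type label and 28.3 and 27.6 CPM under the plt1 plt2 label, so the pairs were tight and well apart (log2 fold change -0.37 ± 0.052, edgeR adjusted p = 0.00122, a fold of 0.774 with a 95% interval of 0.715 to 0.838). AFB1 overlaps 2 genes on the other strand and shares at most 423 exon bases with either. Since strand use is not stated, reads of the overlap cannot be assigned. Of these genes, AT4G03180 had 1717 and 1692 reads against 1840 and 1439 and was not called (log2 fold change -0.09, edgeR adjusted p = 0.388).

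The other receptors were bounded near 1. TIR1 had 133 and 126 CPM against 122 and 121 CPM (95% interval of the fold 0.875 to 1.01, edgeR adjusted p = 0.244). AFB2, which carries much of the auxin response together with TIR1, had 53.5 and 52.2 against 53.6 and 52.1 CPM (0.931 to 1.07). AFB3 had 25.4 and 25.1 against 27.3 and 28.02 CPM (1.01 to 1.19, edgeR adjusted p = 0.172), an interval that leaves out 1 before adjustment over all genes. The receptors of picloram-type auxins, AFB4 and AFB5, had 26.4 and 25.8 against 27.3 and 29.6 CPM and 87.6 and 87.2 against 93.3 and 89.8 CPM (edgeR adjusted p = 0.245 and 0.394). AFB3 and AFB4 share at most 638 and 515 exon bases with any single gene on the other strand. Of the genes that overlap AFB3, AT1G12810 had 1115 and 1037 reads against 1363 and 1057 (log2 fold change 0.13, edgeR adjusted p = 0.281). AFB3 itself had 1486 and 1429 reads against 1731 and 1530 (log2 fold change 0.13). AT4G24380, which overlaps AFB4, had 150 and 147 reads against 226 and 143. Reads of these overlaps cannot be assigned either. Summed over the 6 genes, receptor levels were 141 and 137 RPKM against 136 and 135 RPKM, while the summed Aux/IAA level was 1602 and 1678 RPKM against 1778 and 1789 RPKM. The share of AFB1 in the receptor sum was 11.1% and 11.3% against 8.94% and 8.81%.

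TIR1, AFB2 and AFB3 transcripts are known targets of the microRNA miR393. The mature miR393a-5p is shown. Below it, for TIR1, AFB1, AFB2 and AFB3, is the window of the coding sequence that best matches its reverse complement. Capitals mark bases 2 to 8 in the microRNA and bases that match the reverse complement in the receptors.
miR393a-5p: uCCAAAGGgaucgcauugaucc
TIR1: GagaCAATGCGATCCCTTTGGA
AFB1: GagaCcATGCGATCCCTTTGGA
AFB2: GaAaCAATGCGATCCCTTTGGA
AFB3: GaAaCAATGCGATCCCTTTGGA
Of 22 bases 20 match in AFB2 and AFB3, 19 in TIR1 and 18 in AFB1, and the best windows of AFB4 and AFB5 match at 15 and 14. The sites lie at chr3:23273727-23273748 (TIR1, minus strand), chr4:1405341-1405362 (AFB1, minus), chr3:9870237-9870258 (AFB2, plus) and chr1:4369085-4369106 (AFB3, minus) in TAIR10.1. Small RNAs were not measured, and the loci MIR393A and MIR393B held 0 to 2 reads per library, too few to be tested. A part of miR393 in the AFB1 difference was not tested.

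Other genes of the pathway were examined by role. None of 15 genes of SCF assembly and control was called by edgeR or DESeq2, and none had an unadjusted edgeR p below 0.05. Their log2 fold changes ran from -0.09 to 0.06. They include the SKP1-like subunit gene ASK1, with 218 and 231 CPM against 230 and 221 CPM, and CUL1, with 386 and 384 CPM against 389 and 395 CPM. The 2 with the smallest adjusted p were ECR1, of the enzyme that activates the ubiquitin-like modifier RUB (0.251), and RBX1, the ring-finger subunit (0.314). Of the 5 TOPLESS co-repressor genes, TPR4 rose, with 112 and 104 CPM against 122 and 127 CPM (log2 fold change 0.20 ± 0.050, edgeR adjusted p = 0.0275), a call lost without wild type 2 (adjusted p = 0.222). TPR4 overlaps a gene on the other strand. All 5 TOPLESS co-repressor genes had a log2 fold change above 0. TPR1 and TPR3 were not called but also had an unadjusted edgeR p below 0.05. Over all tested genes 4.63% were called higher and 5.86% lower. TPL itself had 385 and 370 against 391.8 and 400.4 CPM and was not called (edgeR adjusted p = 0.370).

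The ARFs, on which the Aux/IAA proteins act, had 5 called higher and 0 lower of 15 tested. Of all tested genes 4.63% were called higher and 5.86% lower. DESeq2 called the same 5, and no ARF was lower at an unadjusted edgeR p below 0.05. ARF3 (ETTIN), a repressor-type ARF without the domain that binds Aux/IAA proteins, had the largest value, with 23.3 and 22.7 CPM against 32.0 and 33.8 CPM (log2 fold change 0.52 ± 0.057, edgeR adjusted p = 0.000239). ARF18 (0.38 ± 0.087), ARF19 (0.28 ± 0.063), which drives callus formation with ARF7, and ARF4 (0.24 ± 0.058) also rose, with edgeR adjusted p of 0.0198, 0.0163 and 0.0275. ARF9 was the fifth. ARF7 had 78.2 and 72.9 against 78.5 and 78.4 CPM and ARF5 had 298 and 284 against 288 and 284 CPM, and neither was called. Without wild type 2 only 1 ARF was called in place of 5; ARF19 overlaps a gene on its own strand.

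Of 14 tested early auxin targets outside the Aux/IAA family 7 rose and 0 fell by edgeR, and 8 rose and 0 fell by DESeq2. In the lower direction, 2 had an unadjusted edgeR p below 0.05, GH3.2 and LBD29. LBD29 thus went against the LBD genes that rose (log2 fold change -0.26 ± 0.11, edgeR adjusted p = 0.168). Over all tested genes edgeR called 10.5% and DESeq2 7.9%. LBD33 (log2 fold change 1.01 ± 0.18, edgeR adjusted p = 0.00469), GH3.1 (0.56 ± 0.045, 3.03e-05), LBD17 (0.49 ± 0.12, 0.031) and LBD16 (0.28 ± 0.060, 0.0157) had the largest values; GH3 enzymes conjugate auxin to amino acids, and LBD factors act downstream of ARF7 and ARF19. GH3.1 had 269 and 257 CPM against 393 and 383 CPM, whereas GH3.2 had 416 and 415 against 387 and 384 CPM and GH3.3 had 584 and 580 against 576 and 617 CPM, and neither of these was called. The count of 7 was 2 without wild type 1 and 2 without wild type 2. Of 6 tested genes of other auxin perception, such as the ABP1 and TMK genes, 0 were called by edgeR and 1, TMK3, by DESeq2 (adjusted p = 0.0328), the only one with an unadjusted edgeR p below 0.05; TMK3 (0.0567) and SKP2A (0.348) had the smallest edgeR adjusted p.

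**Figure D4:**
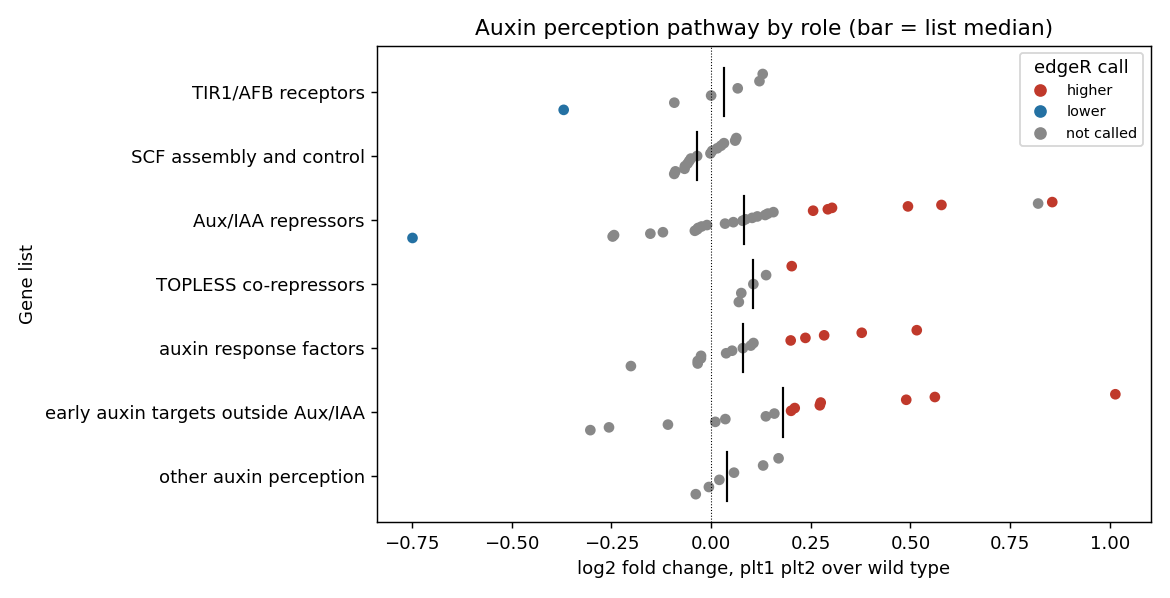
Log2 fold change (plt1 plt2 over wild type) of the tested genes of each role in auxin perception; each point is 1 gene, coloured by its edgeR call, and black bars mark list medians. The 15 genes of SCF assembly and control stay between -0.09 and 0.06, while Aux/IAA genes spread from -0.75 to 0.86.

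Promoter windows of the members were searched for auxin response elements, the short sequences that ARFs bind. The motifs TGTCTC, the related TGTCGG, and also TGTCCC were searched on both strands from 250 bases before to 50 bases after the annotated start, counting overlapping matches. At least 1 motif was found in 18 of 29 Aux/IAA windows (62.1%), in 2 of 6 receptor windows and in 22.5% of 27443 protein-coding genes. TGTCTC alone was found in 12 Aux/IAA windows (41.4%) and in 14.2% of all. The upstream 250 bases of IAA19, the called gene with the highest count of TGTCTC in its window (3), are shown with the motifs in capitals (TAIR10.1, chr3:5263751-5264000, plus strand).
IAA19: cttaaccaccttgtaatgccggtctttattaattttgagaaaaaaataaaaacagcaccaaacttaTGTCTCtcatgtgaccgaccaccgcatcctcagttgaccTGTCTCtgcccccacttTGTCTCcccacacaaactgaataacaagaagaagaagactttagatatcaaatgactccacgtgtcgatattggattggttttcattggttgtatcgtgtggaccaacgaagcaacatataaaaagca
Of the called Aux/IAA genes, IAA16, IAA20, IAA27 and IAA28 also had a motif in the window, and IAA11 and IAA29 had none. Of the 15 tested Aux/IAA genes with a motif 4 rose and 1 fell, and of the 11 without one 2 rose and 0 fell. Over all tested genes 10.5% were called. A match describes the sequence and is no evidence of binding.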

How the data were processed

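Tools named in the submitters' processing notes are STAR 2.7.2b, DESeq2 and Trim Galore 0.5.0, with the genome build TAIR10. The authors deposited unnormalized read counts, with 1 row for each gene and 1 column for each library. The counting tool, annotation and use of strand are not given in the sources used here. Gene models, exon lengths and sequences are from RefSeq TAIR10.1, since the table gives no coordinates. Groups come from the sample titles. All rows passing filterByExpr entered edgeR 4.0.16 (in R 4.3.3) with TMM-scaled library sizes, and the quasi-likelihood F-test of the genotype term was made over all 4 libraries, with Benjamini-Hochberg adjustment over all 19325 genes tested. The SE is the size of the log2 fold change divided by the square root of F, and 95% intervals use the fit's degrees of freedom. CPM and RPKM were computed from TMM-scaled library sizes and union exon lengths. Alternatives were DESeq2 1.42.0, 2 other scalings, no filter, a mean of 50 or more reads, replicate blocks and each library left out. The members and lists were chosen with earlier results of these data known. Every member is named, with the called members, up to 4, of each pathway list, or the 2 with the smallest adjusted p; other pathway genes were named after their values were seen. Matches elsewhere in the genome are of 50 or more bases at 90% identity or more.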

Additional observations from a re-analysis of the deposited data

How the results depend on the processing

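IAA11, IAA16, IAA19, IAA28 and AFB1 were called in all 11 alternative fits; IAA20 lost its call in 4, and IAA27 and IAA29 in 1 each. IAA2, IAA13 and IAA14 were called in 2, 4 and 1 of them. Leaving out 1 library gave 1068 to 3026 called genes in place of 2027 (433 to 1275 higher, 606 to 1751 lower), 6 to 10 called members, 4 to 7 Aux/IAA genes higher and 1 to 2 lower, and a median Aux/IAA log2 fold change of 0.0498 to 0.11. In these fits the lone library is assumed to vary like the other group. DESeq2 called 1597 genes and 8 members. Of the 8 called members, 5 overlap no other gene. The 21 tested members that overlap no other gene had a median log2 fold change of 0.00027, with 11 above 0 and 10 below. Over all 32 tested members the median was 0.073, with 20 above 0 and 12 below. With the replicate number as a block, 1909 genes and 8 members were called; the titles do not say that numbers pair libraries, and deviations of same-numbered libraries had a correlation of -0.119 over 18340 genes. A crossed replicate block, added after seeing the data, gave 2340 genes, 10 members and 2 Aux/IAA genes lower. Signs changed in some fit for 11 members that were not called. Over the fits without 1 library they ran from -0.0101 to 0.18 for IAA3, -0.14 to 0.29 for IAA5, -0.0995 to 0.0866 for IAA7, -0.0809 to 0.0137 for IAA8, -0.54 to 0.12 for IAA10, -0.0874 to 0.0333 for IAA12, -0.0594 to 0.33 for IAA15, -0.0406 to 0.12 for IAA26, -0.11 to 0.0275 for IAA30, -0.31 to 0.31 for IAA33 and -0.0230 to 0.0203 for AFB2. AFB2 was at -0.00895 with upper-quartile scaling and at -0.00041 when genes needed a mean of 50 reads. The causes of these shifts were not tested. Depth limits the genes under about 1 CPM, and counts per gene cannot separate overlapping genes.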

Other observations

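Ratios of reads between members of the same library do not depend on scaling. They were compared after the values were seen and were not tested. Pairs with a called member restate the differences given above and are no further support for them. IAA16 had 5.25 and 5.13 reads per read of IAA14 under the wild type label and 8.25 and 6.60 under the plt1 plt2 label. IAA11 had 1.65 and 1.91 reads per read of IAA28 against 4.86 and 4.10. IAA19 had 1.31 and 1.24 reads per read of IAA2 against 1.94 and 2.05, and IAA27 had 0.678 and 0.711 per read of IAA8 against 0.896 and 0.849. In a pair without a called member, IAA9 had 4.757 and 4.645 reads per read of IAA8 against 5.052 and 5.117. Among the receptors, AFB3 had 0.700 and 0.698 reads per read of AFB1 under the wild type label and 0.963 and 1.01 under the plt1 plt2 label. Both AFB3 and AFB1 overlap genes on the other strand, whose reads may be shared.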
